A study of Cucumis sativus with 6 samples.

Results

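Among 17073 gene models measured in cucumber fruit on the day of flower opening, 264 had low transcript levels and were at least 2-fold higher in the line 32X than in the line GFC. These 264 genes, called here the low genes higher in 32X, were chosen from the deposited expression values by 3 conditions. The mean of log2(RPM + 1) over the 3 libraries of 32X had to exceed the mean over the 3 libraries of GFC by at least 1, where RPM is reads per 1000000 counted reads. The lowest 32X value had to lie above the highest GFC value, and the mean level in 32X had to be under 40 RPM. Because the values of both lines made the choice, the size and direction of the line difference in these genes are a description and not a finding. They made up 1.55% of the 17073 genes tested by the same conditions, or 2.45% of the 10782 genes whose mean 32X level was under 40 RPM. The same conditions turned round, with GFC as the higher line, were met by 63 of 10842 genes with a mean GFC level under 40 RPM (0.581%).

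The libraries came from whole fruits of the near-isogenic cucumber (Cucumis sativus) lines 32X and GFC, with 3 biological replicates of each line and no treatment. Both are northern China type cucumbers with short, light green fruits, grown in a greenhouse, and the fruits were taken at anthesis. The labels do not say whether replicates came from separate plants, so spread between libraries may be partly technical. The genotype field carries the same entry (inbred line 1461) in all 6 samples, and the lines were therefore read from the sample titles. The labels do not say which alleles the lines differ in, and the tissue was not checked against marker genes, because the files pair no ID with a gene name.

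The series concerns carpel number, that is, how many carpels fuse to build the cucumber fruit. In flowering plants this number follows the size of the floral meristem, which the signalling peptide CLAVATA3 restricts and the transcription factor WUSCHEL maintains. FRUITFULL-type MADS-box factors and the hormone auxin are known for roles in fruit and carpel growth. Near-isogenic lines are bred by repeated backcrossing, so that they are alike except in the donor segments that remain. At anthesis the cucumber ovary is a mixed organ of ovules, placenta, flesh, vascular tissue and peel, so a transcript made in few cells reaches a low level in RNA of the whole fruit. In such bulk samples, fewer cells of a type and less RNA per cell cannot be told apart. No listed ID was found in the RefSeq gene table of the 9930 cucumber genome (0 matches), so genes are given by ID and none of their products is named.

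Recovered sequencing depth ran from 15320600 to 16960640 reads per library in 32X and from 16131528 to 18089654 in GFC. One read was worth 0.0553 to 0.0653 RPM, and a library with no read of a gene allows a level of up to 3 reads, or 0.166 to 0.196 RPM. Limits and intervals given here hold counting error alone. The intervals pool the reads of the 3 libraries of a line and so leave out the spread between replicates. PCR copies of a molecule are counted as separate reads, which the limits and intervals do not allow for either.

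The low genes higher in 32X were measured well above the counting limit in 32X, and most were also read in GFC. Their mean level in 32X ran from 1.70 to 39.9 RPM with a median of 9.49 RPM, and their mean level in GFC ran from 0 to 17.9 RPM with a median of 3.07 RPM. In reads, the median gene had 458 over the 3 libraries of 32X and 159.5 over the 3 libraries of GFC. Every listed gene reached at least 1 RPM in 3 or more libraries. Without overlap of the lines, each of the 264 genes therefore had to reach it in all 3 libraries of 32X. Of the 264 genes, 181 (68.6%) reached 1 RPM in all 6 libraries. The mean GFC level was under 1 RPM for 59 genes (22.3%) and under 5 RPM for 174 (65.9%). Of all counted reads, 0.336% ± 0.0566 fell on these genes in 32X libraries and 0.111% ± 0.0123 in GFC libraries (SD, n = 3 each).

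**Figure D1:**
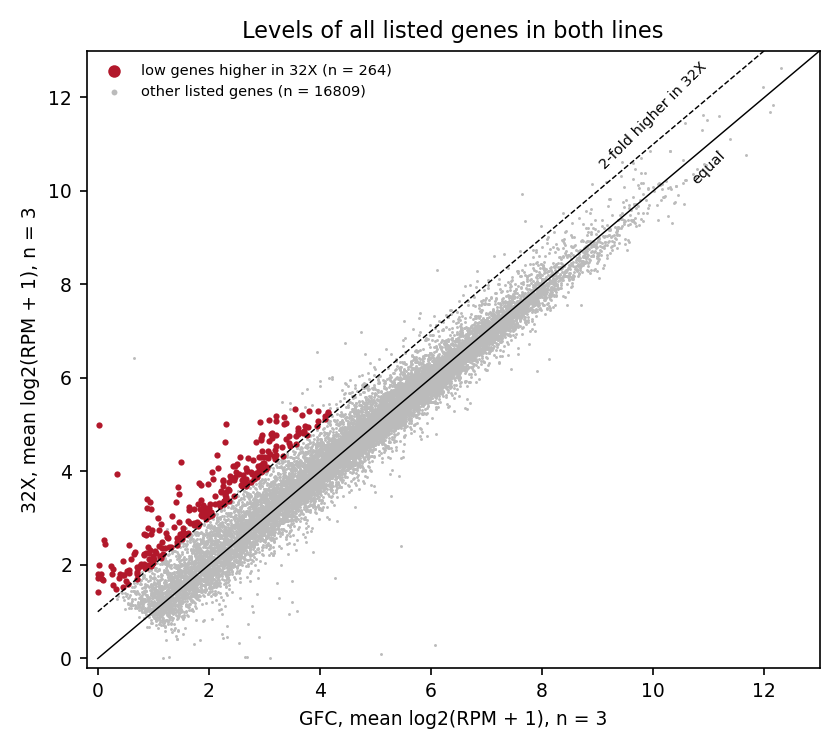
Mean log2(RPM + 1) of every listed gene in 32X (vertical axis) against GFC (horizontal axis), each over 3 libraries; red points are the 264 low genes higher in 32X, grey points the other genes, the solid line marks equal levels and the dashed line a 2-fold higher level in 32X. The red points lie along the dashed line, with a few near 0 in GFC at the left edge.

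Most of the differences lay close to the limit that chose them. On the log2(RPM + 1) scale the difference, 32X minus GFC, had a median of 1.27 and quartiles of 1.11 and 1.55, against a median of 0.00 over all listed genes. It was below 1.3 in 140 genes (53.0%), between 1.3 and 1.5 in 51, between 1.5 and 2 in 57, between 2 and 3 in 14 and above 3 in 2. The added 1 RPM shrinks the difference of low genes, so the ratio of the mean RPM values was larger, with a median of 3.10. That ratio lay between 2 and 3 in 118 genes (44.7%), was at least 4 in 76, at least 10 in 17 and at least 20 in 11. In 124 genes (47.0%) the lowest 32X library was at least 2 times the highest GFC library. A further 223 genes under 40 RPM had a ratio of at least 2 without overlap but missed the limit on the log2(RPM + 1) scale, and 186 of these (83.4%) had a mean 32X level under 10 RPM. With a pseudocount of 0.1 in place of 1 the conditions were met by 465 genes, among them the same 264, and with a pseudocount of 5 by 60 of the 264.

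A gene near the middle of the group shows its usual level and difference, though not its usual highest 32X library or its usual spread in GFC. Csa3G119660, the gene nearest to the median level and the median difference, had 6.50, 10.1 and 10.4 RPM in 32X replicates 1 to 3, against 3.04, 2.89 and 3.32 RPM in GFC replicates 1 to 3. The GFC libraries lay below each 32X library, of which replicate 1 was the lowest. Replicate 3 was the highest, as in 26.1% of the group. The coefficient of variation among the 32X libraries was 24.2%, near the median of 25.9% in the group. Among the GFC libraries it was 7.08%, against a median of 21.3% in the group. Its means were 9.02 ± 2.19 RPM in 32X and 3.08 ± 0.218 RPM in GFC (SD, n = 3 each), a log2 difference of 1.27.

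The share of genes that met the conditions depended on level. Of 1735 listed genes with a mean 32X level of 2 to 5 RPM, 66 (3.80%) met them, and of 1826 genes at 5 to 10 RPM, 68 (3.72%) did. The share was 2.77% of 2747 genes at 10 to 20 RPM and 1.45% of 3516 genes at 20 to 40 RPM. Below 2 RPM only 3 of 958 genes (0.313%) met them; there a difference of 1 on the log2(RPM + 1) scale is hard to reach, because the mean of log2(RPM + 1) in 32X is itself the highest difference possible. The median ratio of mean RPM was highest in the lowest class, with values of 7.35 below 2 RPM, 4.28 at 2 to 5 RPM, 2.99 at 5 to 10 RPM, 2.75 at 10 to 20 RPM and 2.88 at 20 to 40 RPM. Because of the added 1 RPM, the conditions themselves ask for a larger ratio at lower levels, and the value below 2 RPM rests on 3 genes. For the genes higher in GFC by the conditions turned round, the shares in the same classes of mean GFC level were 0.439%, 0.856%, 0.865%, 0.624% and 0.296%.

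At the upper end of the level range stood genes at nearly 40 RPM in 32X. Csa4G094530 had the highest mean, with 31.8, 46.1 and 41.7 RPM in the 32X libraries and 12.7, 8.43 and 11.5 RPM in the GFC libraries. Csa4G286950 followed with 33.1, 44.3 and 38.9 RPM in 32X, against 16.6, 12.3 and 15.3 RPM in GFC. In both genes replicate 2 was the highest library of 32X and the lowest library of GFC. Csa3G172380 averaged 38.7 ± 8.0 RPM in 32X and 13.0 ± 1.26 RPM in GFC, and Csa4G415920 averaged 38.6 ± 11 RPM in 32X and 16.9 ± 2.79 RPM in GFC (SD, n = 3 each). Csa1G002810 was more variable in 32X, with 20.5, 51.4 and 42.7 RPM, while its GFC libraries stood at 8.80, 7.41 and 8.51 RPM. The genes just outside the level limit, Csa2G356090 and Csa6G176940, had mean 32X levels of 40.02 and 40.46 RPM and log2 differences of 1.17 and 1.05.

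The other limits cut through genes with nearly the same values. Csa3G384790 and Csa1G050290 stood just inside the limit on the difference, at 1.00002 and 1.00076, and Csa2G007950 and Csa4G269210 just outside it, at 0.99994 and 0.999854. Csa4G642460 stood just inside the condition on overlap, with 4.05, 29.8 and 12.7 RPM in 32X, against 4.03, 3.96 and 3.43 RPM in GFC. Its lowest 32X library and its highest GFC library were thus nearly level, and its mean difference came from the other two 32X libraries. Csa2G369190 was the next inside, with a lowest 32X value of 1.41 RPM and a highest GFC value of 1.36 RPM. Just outside were Csa1G660200, with a lowest 32X value of 1.42 RPM against a highest GFC value of 1.43 RPM, and Csa7G337100, with 2.94 RPM against 3.04 RPM. Without the condition on overlap the group would hold 279 genes.

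The 10 largest differences on the log2(RPM + 1) scale ran from 2.32 to 4.96. They fell into genes that were nearly off in GFC and genes that were read in GFC at mean levels of 0.862 to 5.10 RPM. The 2 largest differences belonged to genes nearly off in GFC. Csa5G115670 had 32.9, 33.7 and 26.1 RPM in 32X, against 0, 0 and 0.0553 RPM in GFC. Csa6G423470 had 18.4, 15.7 and 10.4 RPM in 32X, against 0.248, 0.283 and 0.276 RPM in GFC. Both genes had 32X libraries far above those of GFC, with log2 differences of 4.96 and 3.61. The reads of Csa6G423470 numbered 718 in 32X and 14 in GFC, a read rate 54.8 times higher in 32X with a 95% interval of 32.4 to 101.

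**Figure D2:**
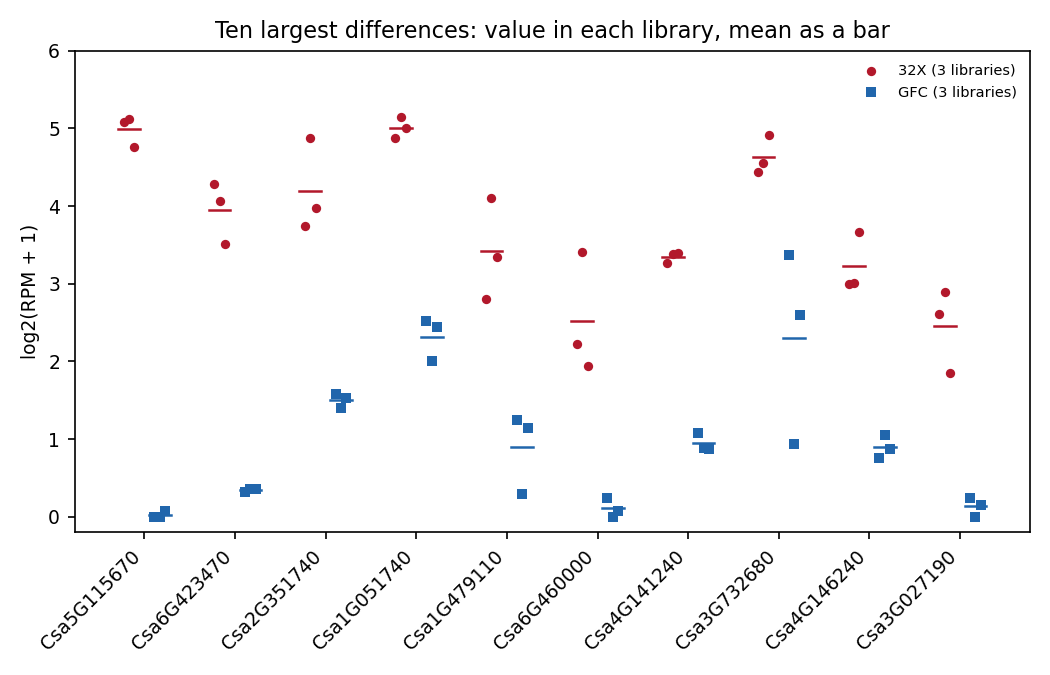
Level of the 10 genes with the largest differences, as log2(RPM + 1) in each library (red circles 32X, blue squares GFC), with the mean of each line as a bar. Csa5G115670 and Csa6G423470 lie near 0 in GFC, and the GFC libraries of Csa3G732680 spread from 0.906 to 9.36 RPM.

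Most of the further genes of this top set were still read in every GFC library, but Csa6G460000 and Csa3G027190 had no read in GFC replicate 2. Csa2G351740 had 12.4, 28.3 and 14.7 RPM in 32X, against 1.98, 1.64 and 1.88 RPM in GFC. Csa1G051740 was steadier in 32X, with means of 31.3 ± 3.01 RPM in 32X and 4.04 ± 0.916 RPM in GFC (SD, n = 3 each). Their log2 differences were nearly equal at 2.70 and 2.69. Csa1G479110 had 6.01, 16.3 and 9.14 RPM in 32X, against 1.36, 0.226 and 1.22 RPM in GFC. In this gene and in Csa2G351740, replicate 2 was about 2 times the mean of the other 32X libraries (2.15 and 2.09 times). Csa3G732680 varied more in GFC than in 32X, with 20.6, 22.5 and 29.2 RPM in 32X, against 9.36, 0.906 and 5.03 RPM in GFC. The remaining genes of the top set, Csa6G460000, Csa4G141240, Csa4G146240 and Csa3G027190, had log2 differences of 2.42, 2.40, 2.33 and 2.32. The first 3 of these lie in runs of adjacent genes described further on, and Csa3G027190 had 5.09, 6.46 and 2.59 RPM in 32X, against 0.186, 0 and 0.111 RPM in GFC.

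In 7 genes (2.65%) at most 3 reads were counted over the 3 GFC libraries together, and with a limit of 10 reads the number was 12. The table lists genes that reached 1 RPM in 3 or more libraries, so a gene that was off in GFC could be listed only if it was on in all 3 libraries of 32X. Apart from Csa5G115670, the 7 genes were low in 32X as well, with means of 1.70 to 3.42 RPM. No read at all was counted in GFC for 3 of them. Csa5G495960 had 1.96, 3.26 and 2.42 RPM in 32X, Csa6G254200 had 2.45, 1.70 and 2.77 RPM, and Csa6G301060 had 1.41, 2.09 and 1.59 RPM. Against a floor of 3 reads over the 3 GFC libraries, their read rates were at least 43.8-fold, at least 40.2-fold and at least 29.2-fold higher in 32X, with the 32X reads taken as counted. With counting error in both lines, the lower limits of the exact 95% intervals were 35.1, 32.2 and 23.2. Their log2(RPM + 1) differences were 1.81, 1.71 and 1.42, the highest that their 32X levels allow.

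The other 4 of the 7 genes had 1 to 3 reads in GFC. Csa5G115670 had 1496 reads in the 32X libraries against 1 in GFC, a ratio of read rates with a 95% interval of 286 to 63145. Csa6G459990 had 162 reads in the 32X libraries against 1 in GFC, a ratio of 173 with an interval of 30.6 to 6875. Both intervals are wide because they rest on a single GFC read. Csa5G495950 had 122 reads in 32X and 2 in GFC (ratio 65.1, interval 17.7 to 544), and Csa3G002860 had 110 and 3 (ratio 39.2, interval 13.1 to 193). In 32X, Csa5G495950 had 3.19, 2.22 and 2.12 RPM and Csa3G002860 had 2.58, 2.61 and 1.65 RPM. By the chromosome code in the ID, 3 of the 7 genes lie on chromosome 5, 3 on chromosome 6 and 1 on chromosome 3. Csa5G495950 and Csa5G495960 are direct neighbours, and Csa6G459990 is next to Csa6G460000, which had 256 reads in 32X and 4 in GFC.

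IDs of this form carry the chromosome number after the letters Csa (UN where the sequence is unplaced) and then a serial number that increases along the chromosome. The low genes higher in 32X were found on every chromosome code, in shares near those of all listed genes. Chromosome 3 held 55 of them (20.8%, against 21.1% of the listed genes), chromosome 6 held 44 (16.7% against 16.6%), and chromosomes 1 and 5 held 40 each (15.2%, against 14.5% and 13.3%). There were 33 on chromosome 4 (12.5% against 11.9%), 27 on chromosome 2 (10.2% against 12.2%), 23 on chromosome 7 (8.71% against 9.84%) and 2 on unplaced sequence. The median difference per chromosome ran from 1.15 on chromosome 2 to 1.34 on chromosome 4.

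**Figure D3:**
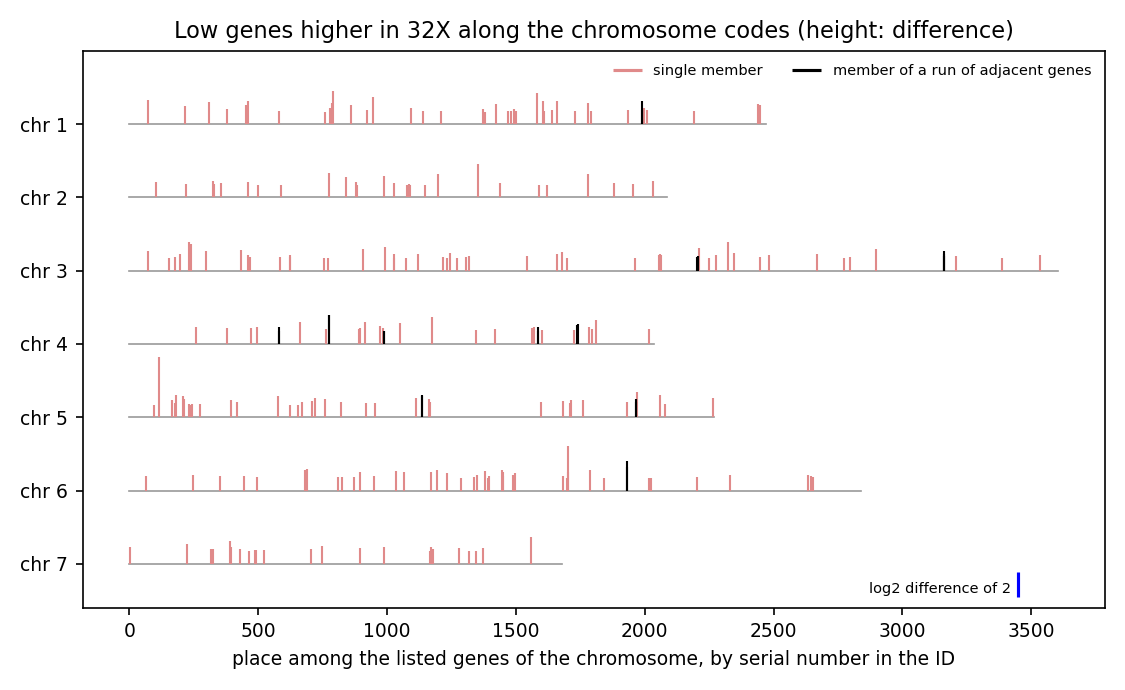
The low genes higher in 32X along the 7 chromosome codes. Each vertical line is a gene at its place among the listed genes of that chromosome (horizontal axis), its height is the log2 difference, and black lines are members of runs of adjacent genes; the genes are spread along every chromosome, and 5 of the 11 runs lie on chromosome 4.

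Some of these genes were adjacent in serial number among the listed genes. The 262 genes with a chromosome code had 524 neighbouring places, and 24 of these (4.58%) were taken by another gene of the group, where 1.54% of all placed listed genes belong to it. The adjacent genes formed 11 runs with 23 genes in all, 8.78% of the placed genes, as 10 pairs and 1 run of 3. Within the runs 8 of the 12 steps were 10 serial numbers, the most common spacing of the scheme, and the others were 20, 500 or 5000. The 493 neighbours outside the group had a median difference of 0.08, against -0.01 over all genes outside the group. Among these neighbours 156 (31.6%) were higher in 32X without overlap of the lines, against 20.8% of all genes outside the group. The share over all 17073 listed genes was 22.0%, and over those under 40 RPM in 32X it was 21.6%. No test was run on these placements. The number of runs changed with the scale and with 1 library, and so did the number of genes in the group. There were 11 runs among 264 genes, 29 among 465 with a pseudocount of 0.1 and 1 among 60 with a pseudocount of 5. Chosen without 32X replicate 1, 375 genes held 20 runs.

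The single run of 3 was on chromosome 3. Csa3G852590 had 2.02, 1.63 and 3.48 RPM in 32X, against 0.496, 0.113 and 0.332 RPM in GFC. Csa3G852600 had 25.5, 34.1 and 36.4 RPM in 32X, against 8.74, 10.7 and 8.96 RPM in GFC. Csa3G852610 had 19.4, 20.6 and 26.0 RPM in 32X, against 9.17, 9.45 and 8.46 RPM in GFC. The middle gene was the most abundant of the run, and in all 3 genes replicate 3 was the highest 32X library. Their log2 differences were 1.34, 1.65 and 1.19. The listed gene before the run, Csa3G852580, had a difference of 0.90, and the one after it, Csa3G852620, had a difference of -0.29.

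**Figure D4:**
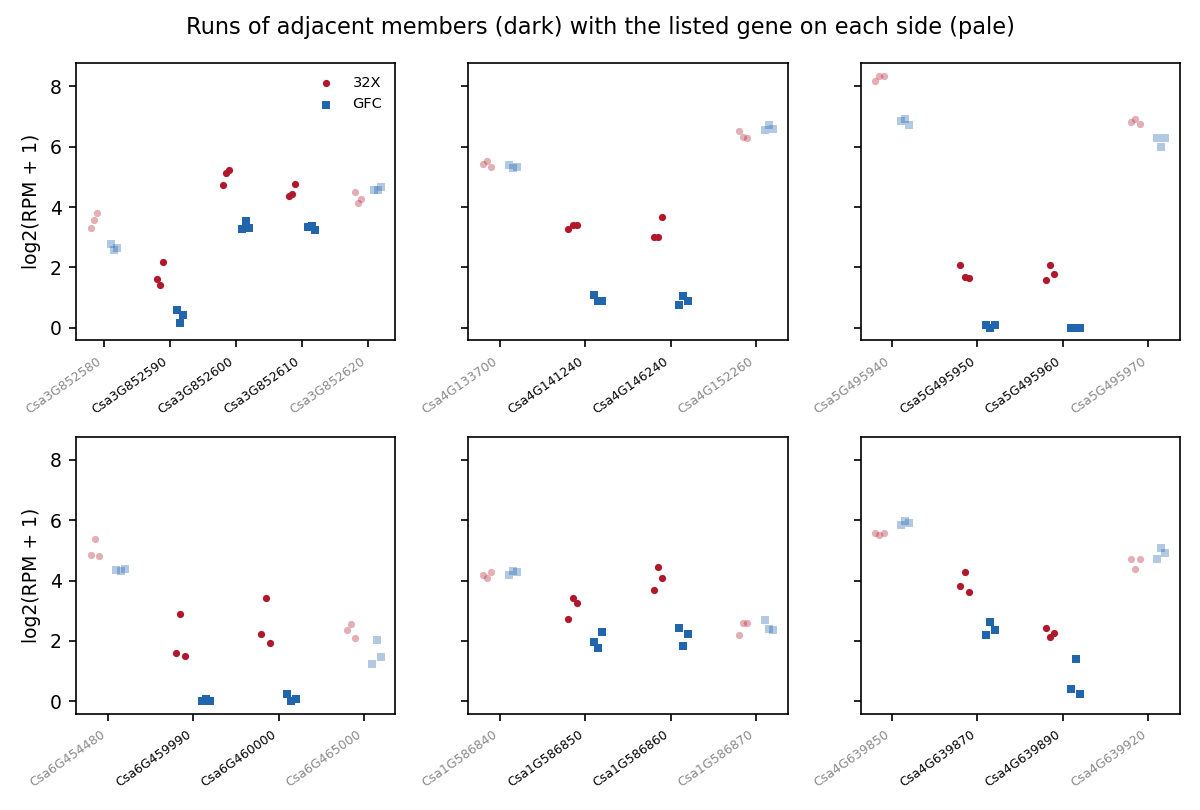
Level as log2(RPM + 1) in each library (red circles 32X, blue squares GFC) for the run of 3 and the 5 pairs with the largest summed differences, with the listed gene on each side in pale colours. The genes within a run are separated between the lines, while the flanking genes range from overlapping to a clear difference at Csa5G495940.

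The pair with the largest summed difference was Csa4G141240 and Csa4G146240, 5000 serial numbers apart but next to each other among the listed genes. Csa4G141240 had 8.59, 9.46 and 9.49 RPM in 32X, against 1.12, 0.849 and 0.829 RPM in GFC. Csa4G146240 had 6.99, 7.05 and 11.7 RPM in 32X, against 0.682, 1.08 and 0.829 RPM in GFC. The levels of both genes were alike in each line, with ratios of read rates of 9.92 (interval 7.36 to 13.7) and 9.99 (interval 7.34 to 13.9). The flanking listed genes differed little, by 0.09 and -0.24.

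On chromosome 6, the pair Csa6G459990 and Csa6G460000 was nearly off in GFC and highest in replicate 2 of 32X. Csa6G459990 had 2.02, 6.40 and 1.83 RPM in 32X, against 0, 0.0566 and 0 RPM in GFC. Csa6G460000 had 3.68, 9.66 and 2.83 RPM in 32X, against 0.186, 0 and 0.0553 RPM in GFC. Replicate 2 was 3.32 and 2.97 times the mean of the other 32X libraries in these genes. Their flanks, 5510 serial numbers before and 5000 after, had differences of 0.68 and 0.77.

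The pair Csa5G495950 and Csa5G495960 on chromosome 5 stood beside abundant genes. The gene before it, Csa5G495940, had 290.3, 327.5 and 321.4 RPM in 32X, against 113.8, 120.6 and 104.7 RPM in GFC, a difference of 1.46 at a level far above the limit of 40 RPM. The gene after it, Csa5G495970, had a difference of 0.62. All 4 genes are spaced by 10 serial numbers and were higher in each 32X library than in any GFC library. Whether neighbouring models of this kind share reads was not tested, and the sources used here do not give how reads in overlapping genes or on the opposite strand were counted.

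Less extreme pairs were found on chromosomes 1 and 4. Csa1G586850 had 5.58, 9.73 and 8.55 RPM in 32X, against 2.91, 2.38 and 3.87 RPM in GFC. Csa1G586860 had 11.8, 20.8 and 16.0 RPM in 32X, against 4.40, 2.55 and 3.65 RPM in GFC. Both genes had the same order of 32X libraries, with replicate 2 highest and replicate 1 lowest, and their flanks had differences of -0.07 and -0.03. Csa4G639870 averaged 14.2 ± 3.68 RPM in 32X and 4.26 ± 0.764 RPM in GFC, and Csa4G639890 averaged 3.88 ± 0.512 RPM in 32X and 0.706 ± 0.814 RPM in GFC (SD, n = 3 each). The flanks of this pair lay on the other side, with differences of -0.35 and -0.30. Over the 22 flanks of the 11 runs the difference ranged from -1.43 to 1.46 with a median of 0.25. Of these 22 flanks, 10 were higher in 32X without overlap. The share without overlap was 22.0% over all listed genes and 31.6% over all neighbours outside the group. No test was run on the flanks.

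The order of the replicates within a line was not itself a condition, and many genes of the group had it in common. The values that set this order also chose the genes, and the part of the choice in the order was not tested. Replicate 2 was the highest 32X library in 166 of the 264 genes (62.9%), against 38.9% of the 10518 other genes under 40 RPM. Replicate 1 was the lowest 32X library in 155 genes (58.7%), against 37.3% of the others. The full order of replicate 2, then 3, then 1 was seen in 107 genes (40.5%), against 21.7% of the others. In GFC, replicate 2 was the lowest library in 155 genes (58.7%, against 44.4% of the others) and replicate 1 the highest in 140 (53.0% against 39.4%). The same shares were taken in genes chosen without the replicate in question. There 32X replicate 2 was highest in 48.9%, against 39.3% of other genes, and 32X replicate 1 lowest in 72.5%, against 36.5%. GFC replicate 2 was lowest in 46.1%, against 44.7%, and GFC replicate 1 highest in 65.2%, against 38.9%. Such a choice asks for high values only in the 32X libraries kept, or low values only in the GFC libraries kept. It thus favours the left-out library as the lowest of 32X or the highest of GFC. For this reason these shares cannot show how much of the order came from the choice. In the group as a whole, 0.286%, 0.397% and 0.325% of the counted reads fell on these genes in 32X replicates 1 to 3, and 0.121%, 0.0972% and 0.114% in GFC replicates 1 to 3.

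**Figure D5:**
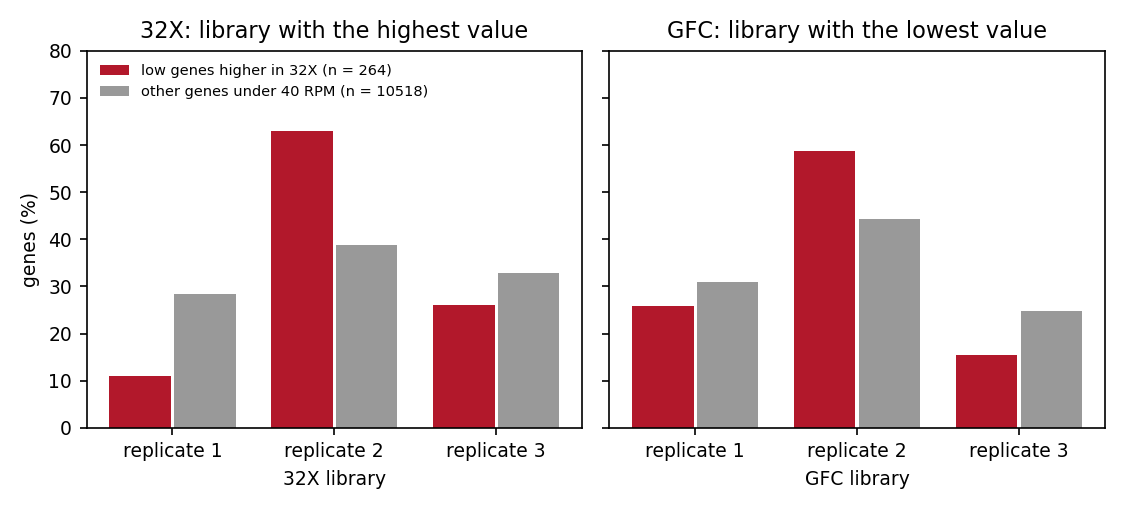
Percent of genes whose highest 32X value (left) or lowest GFC value (right) was in each replicate, for the 264 low genes higher in 32X (red) and the 10518 other genes with a mean 32X level under 40 RPM (grey). Replicate 2 has the tallest red bar in both panels, at 62.9% and 58.7%.

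The 98 more abundant genes that met the other conditions, at 40 RPM or above in 32X, had replicate 2 highest in 83.7% and replicate 1 lowest in 63.3% of cases. In the 63 low genes higher in GFC, replicate 1 was the highest 32X library in 57.1% and replicate 2 the lowest in 49.2%. Among the 32X libraries, replicate 2 had the fewest counted reads (15320600) and replicate 3 the most (16960640), with 16306424 in replicate 1. The part of depth in the order of replicates was not tested. Adjacent genes of the group had the same highest 32X library in 9 of 12 steps (75%), and over all pairs of genes of the group the share was 47.4%.

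The median spread between replicates was larger in these genes than in the other genes under 40 RPM. No test was run on the order or the spread of replicates, and the values that give the spread also chose the genes. The coefficient of variation of RPM among the 32X libraries had a median of 25.9%, against 12.3% in the other genes under 40 RPM. Counting error for the same reads would give a median of 8.09% in the group and 6.92% in the others. Among the GFC libraries the median coefficient of variation was 21.3%, against 9.45% in the others, beside counting errors of 13.6% and 6.80%. The group is lower in GFC by choice, so counting error is larger there.

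Single libraries stood out in some genes, by values that also took part in the choice. Replicate 2 was at least 1.5 times the next highest 32X library in 42 genes (15.9%, against 2.49% of the others), replicate 3 in 20 (7.58% against 1.53%) and replicate 1 in 4 (1.52% against 0.979%). The largest spread in 32X was that of Csa3G133380, with 4.35, 2.48 and 20.6 RPM in 32X, against 0.806, 1.92 and 1.05 RPM in GFC. Csa4G064650 had 1.47, 1.44 and 7.31 RPM in 32X, against 0.744, 0.113 and 0.553 RPM in GFC. Replicate 3 alone was high in both of these genes. Csa3G859670 was high in replicate 2 alone, with 1.59, 7.25 and 2.0 RPM in 32X, against 1.12, 0.509 and 0.663 RPM in GFC.

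The steadiest genes in 32X differed between replicates by no more than counting error would give. Csa4G639730 had 33.2, 32.3 and 33.3 RPM in 32X, against 14.7, 14.1 and 14.9 RPM in GFC. Csa5G139390 had 4.11, 4.24 and 4.07 RPM in 32X, against 1.12, 0.792 and 1.93 RPM in GFC. Csa3G180330 had 8.59, 8.22 and 8.20 RPM in 32X, against 3.29, 2.21 and 3.70 RPM in GFC. Their log2 differences lay between 1.12 and 1.22, close to the limit.

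A library that took no part in the choice gives a value the conditions did not use, although its comparison still draws on the libraries of the other line that did. The shares of all listed genes, which were not chosen in this way, are therefore not a like standard. A gene under 1 RPM in all GFC libraries, as 37 of the 264 were, was listed only if every 32X library reached 1 RPM. For such a gene the side of a left-out 32X library was fixed by the listing. Chosen without 32X replicate 1, the conditions were met by 375 genes, with a median difference of 1.27 in the 5 libraries used. In the replicate left out these genes exceeded the GFC mean by a median of 0.86, 359 of them (95.7%) lay above that mean, and 144 (38.4%) exceeded it by at least 1. Over all listed genes 48.1% lay above the GFC mean in this replicate and 1.5% exceeded it by at least 1. Chosen without 32X replicate 2, 227 genes exceeded the GFC mean by a median of 1.49 in that replicate, and 182 (80.2%) by at least 1, against 4.31% of all listed genes. The 282 genes chosen without 32X replicate 3 had a median of 1.22 there, and 188 (66.7%) reached 1, against 2.55% of all listed genes. Left out in turn, GFC replicates 1, 2 and 3 lay below the 32X mean by medians of 1.08, 1.35 and 1.19 in the 322, 258 and 294 genes chosen without them. In each of these 3 sets every gene lay below the 32X mean in the replicate left out, against 47.3%, 53.4% and 48.6% of all listed genes. The values in the left-out replicate were thus closest together between the lines for 32X replicate 1.

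A test across all listed genes gives the background for these numbers. With limma on log2(RPM + 1), 2086 of 17073 genes (12.2%) were higher in 32X at a Benjamini-Hochberg adjusted p under 0.05, and 1259, 1123 and 962 were without 32X replicate 3, GFC replicate 2 and GFC replicate 3. In the group 258 of 264 genes were among them, a count that the choice of genes largely fixed, since the test and the conditions used the same contrast. With RPM as deposited, 264 low genes were higher in 32X and 63 in GFC by the conditions (80.7% in 32X). The numbers were 266 and 63 with TMM scaling (80.9%), 263 and 63 with median-of-ratios scaling (80.7%) and 207 and 86 after quantile normalization (70.6%). With a difference of at least 2 in place of 1, they were 16 and 10 (61.5%).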

How the data were processed

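Expression of 17073 gene models in 6 libraries was taken from the table of RPM values that the authors deposited, which are scaled to 1000000 counted reads per library. TopHat and HTSeq were used per the submitters' processing notes; the sources used here give no versions, genome build, annotation, filter or strand setting. The kit preserved strand, per the labels' protocols. Each column summed to 1000000, and every value was a whole multiple of 1 read (100% within 0.001 reads; the lowest value of 32X replicate 3 was 2 reads), which gave the read counts used here. Lines were taken from the titles. Differences are 32X minus GFC on log2(RPM + 1).

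The lines were compared over all genes in limma 3.58.1 (R 4.3.3, variance trend, two-sided, Benjamini-Hochberg), with edgeR 4.0.16 on recovered reads as an alternative; both were tested on simulated data. Intervals are exact Clopper-Pearson. Neighbours are adjacent by serial number among listed genes. The genes, lists and tests were chosen with earlier results of these data known. Named were the 10 largest differences, genes with at most 3 GFC reads, the run of 3 and the 5 leading pairs, genes at each limit, the 3 most and 3 least variable in 32X, the gene nearest the medians and the 5 highest in 32X. Flanking genes and the values in left-out libraries were added after the values were seen.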

Additional observations from a re-analysis of the deposited data

How the results depend on the processing

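The number of low genes higher in 32X was 264 and stayed within 1.5 times under TMM scaling, median-of-ratios scaling and quantile normalization (206 to 264 of the 264 genes shared), with level limits of 20 and 80 RPM and without the condition on overlap. It was 465 with a pseudocount of 0.1, 60 with a pseudocount of 5, 165 when a gene needed 5 RPM in 3 libraries and 16 with a difference of at least 2, settings that by construction add or remove low genes and small differences. Genes near 0 in GFC numbered 7, but 1 with a pseudocount of 5, with that filter and with a difference of at least 2, and 12 with a limit of 10 reads. The 11 runs became 29 with a pseudocount of 0.1, 1 with a pseudocount of 5 or a difference of at least 2, 5 with the filter and 17 when 1 listed gene could lie between. Leaving out 1 library gave 227 to 375 low genes, with the highest number without 32X replicate 1, 7 to 10 genes near 0 in GFC and 10 to 20 runs, with 20 without 32X replicate 1.

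Genes higher in 32X by limma numbered 2086, and 962 to 2680 without 1 library: 1259 without 32X replicate 3, 1123 without GFC replicate 2 and 962 without GFC replicate 3. With the replicate block the number was 1383 of 17073 genes. Among them were 255 of the 264 low genes, a count that the choice of these genes largely fixed. The labels tie the replicate numbers to no shared plant or day. Deviations of same-numbered libraries correlated at -0.04, -0.27 and -0.09 across genes. The planned filter of 1 RPM in 3 libraries removed no gene. In edgeR's quasi-likelihood test on recovered reads 2210 genes were higher in 32X. All 452 values of the 39 named low genes under these alternatives stayed above 0, as their choice largely fixed, and 55 moved by more than the spread between replicates, 53 of them with another pseudocount. Depth limits the genes without a GFC read, whose fold changes are lower bounds.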
